A study of Mus musculus with 7 samples.

Results

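A group of 10 genes of the cardiac Z-disc, the plate that anchors the thin filaments at each end of a sarcomere, was followed in bulk RNA from mouse heart. The group is Ankrd1, Ankrd2, Ankrd23, Csrp3, Xirp1, Xirp2, Acta1, Flnc, Des and Cryab. They are given by name and not by a threshold on values, though the list was chosen with earlier results of these data known. Each matched 1 of the 23420 gene rows of the deposited table. The Z-disc carries the force of contraction between neighbouring sarcomeres and to the cell membrane, and several of its proteins also sense stretch or enter the nucleus. In loaded or injured heart muscle, the well-known response includes more mRNA of the muscle ankyrin repeat protein Ankrd1 and of skeletal alpha-actin, Acta1.

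The libraries came from mice that model myocarditis caused by immune checkpoint inhibitors (ICI). The control group held 4 Ctla4+/+;Pdcd1-/- animals and the ICI-myocarditis group 3 Ctla4+/-;Pdcd1-/- animals. Ctla4 and Pdcd1 encode receptors that restrain T cells. All 7 animals thus lacked Pdcd1, were untreated and were 3 to 6 weeks old, so no library came from a wild-type heart or from an animal given a checkpoint inhibitor. The RNA came from flash-frozen ventricle per the extraction protocol, while the tissue label names the whole heart. Nothing in the labels says how litters or sexes were spread over the groups.

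Recovered totals were 20931730 to 32567278 reads per control library and 27948525 to 39037176 per ICI-myocarditis library. All values below are normalized counts, the reads of a gene divided by 1 size factor per library. Control 2 lay apart from the other controls on the first principal component, which held 68.6% of the variance, at 2.25 against -96.7 to -61.2, with the ICI-myocarditis libraries at 58.9 to 105. The summed level of 6 T cell markers was 1462 in control 2, against 171, 173 and 123 in controls 1, 3 and 4. It was 6390 to 9759 in ICI-myocarditis. What set control 2 apart was not tested. The mRNAs of both targeted genes, which can come from infiltrating T cells, were higher in ICI-myocarditis (Ctla4 251 to 373 against 29.2 to 113; Pdcd1 1096 to 1481 against 2.50 to 244) and do not check the genotypes. Of 6 atrial markers, 5 were tested, and limma called 1 higher and 0 lower. The called gene was Nppa, an atrial peptide that stressed ventricle also makes, at 6265 to 8778 normalized counts in controls and 38489 to 174572 in ICI-myocarditis (log2 fold change 3.60, adjusted p = 0.00316 by limma). With it the summed atrial level was 20787 to 45317 in controls and 62519 to 198439 in ICI-myocarditis, while Sln stayed at or below 3.70 in every library. The part of atrial tissue in these values was not tested. Cardiomyocyte markers were abundant in every library. The summed level of these 12 markers was 2894680 to 6299720 in controls and 2042070 to 3423950 in ICI-myocarditis, and 12 of 12 had fold changes below 0 (median log2 fold change -0.79), although limma called 0 of them (0 higher and 2 lower at an unadjusted p under 0.05; edgeR 0, DESeq2 4 lower). In bulk RNA, fewer cardiomyocytes and less RNA per cardiomyocyte cannot be told apart.

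Ankrd1 was the 1 member that limma called in these normalized counts. It encodes CARP, a titin-binding ankyrin repeat protein that also acts in the nucleus, and lies on the minus strand at chr19:36111961-36120099 (GRCm38). Its normalized counts were 19876, 12080, 20615 and 28945 in controls 1 to 4. In ICI-myocarditis 1 to 3 they were 77862, 80513 and 74569. The groups did not overlap, and in normalized counts the 3 diseased hearts lay much closer together than the controls did. The means were 20379 ± 6893 (SD, n = 4) and 77648 ± 2978 (SD, n = 3), and the fitted log2 fold change was 2.00 (SE 0.335, adjusted p = 0.00597 by limma), or 3.99-fold with a 95% interval of 2.37 to 6.73. The share of all reads taken by Ankrd1 was 0.0468% to 0.0775% in controls and 0.272% to 0.285% in ICI-myocarditis. In the authors' deposited table, the log2 fold change of Ankrd1 was 1.93 with an adjusted p of 1.83e-08.

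Of the 10 members, all of which passed the filter on low values, limma called 1 higher (Ankrd1) and 0 lower in ICI-myocarditis. Among all 15258 genes tested, 11.7% were called higher and 4.0% lower. edgeR called 1 member higher and 0 lower, beside 10.3% and 3.68% of genes tested. DESeq2 likewise called 1 higher and 0 lower, beside 14.2% and 8.4%. At an unadjusted p of 0.05 limma gave 1 higher and 0 lower. Groups that did not overlap were found for 1 member with ICI-myocarditis higher and 0 with it lower, beside 17.3% and 11.3% of genes tested. The members' fold changes ran from -0.44 to 2.00 on the log2 scale with a median of 0.26, beside a median of -0.02 over all genes tested.

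**Figure D1:**
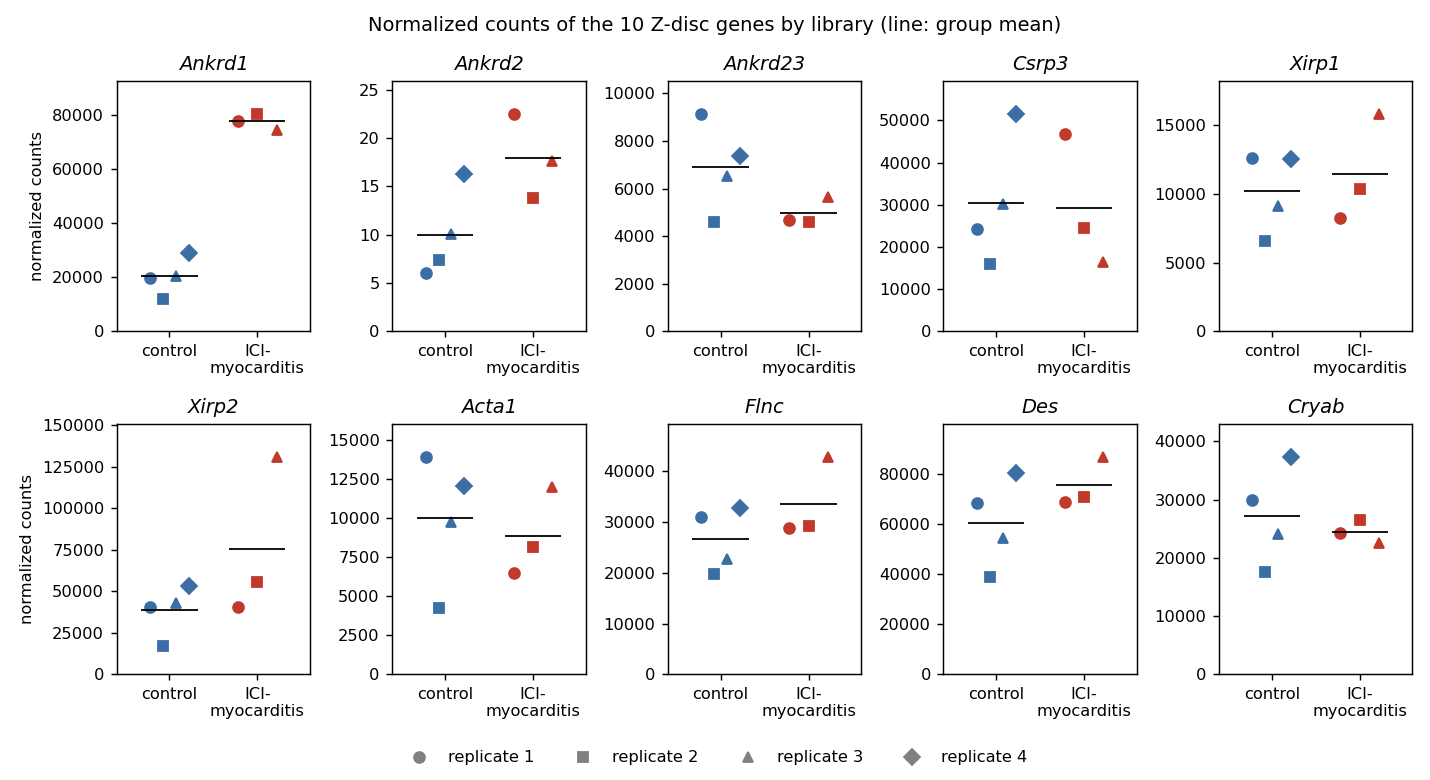
Normalized counts (vertical axis, linear, a separate scale for each gene) of the 10 members in the 4 control (blue) and 3 ICI-myocarditis (red) libraries, with marker shape for replicate number and a line at each group mean. Ankrd1 is the gene whose groups do not overlap, at 12080 to 28945 in controls and 74569 to 80513 in ICI-myocarditis.

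Promoter sequence is shown for the members on which the results turn, because short motifs for muscle and load-responsive factors are known from several Z-disc genes. Sequences are from RefSeq on GRCm38.p6, written in the direction of the gene, in windows of 250 bases before to 50 after a start site. Of the 10 members, 8 had such a window. The motif CATTCC, read on both strands and known as M-CAT, the binding site of TEAD factors, occurred in windows of 4 members (Ankrd1, Ankrd23, Acta1 and Flnc). Counted by window this was 6 of the 11 member windows, beside 14.7% of all 32851 promoters of that length. Both Flnc windows hold the same site. Capitals mark the motif, which reads GGAATG where it lies on the opposite strand. The Ankrd1 motifs lie from -210 to -205 and from -123 to -118 of the RefSeq start, within chr19:36120037-36120066 and chr19:36119950-36119979 (minus strand), and a longer GENCODE model transcribes both. The others shown lie at chr1:36535842-36535871 (Ankrd23, minus), chr8:123894804-123894833 (Acta1, minus) and chr6:29433140-29433169 (Flnc, plus). A further Ankrd23 motif, which lies after its other start site, is not shown.
Ankrd1 distal: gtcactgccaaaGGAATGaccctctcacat
Ankrd1 proximal: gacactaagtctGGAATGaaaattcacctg
Ankrd23: cccagtgggccaCATTCCcagaacggtatt
Acta1: gaagggcagcaaCATTCCttcggggcggtg
Flnc: cgggccgggcggCATTCCtgggaggccggc
These members did not move alike: Ankrd1 rose, and Ankrd23, Acta1 and Flnc did not pass the test.

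The 250 bases before the start of Acta1 (chr8:123894776-123895025, minus strand) and of Xirp2 (chr2:67445752-67446001, plus strand) are shown because each held the 1 match among the members to a classical muscle element. In Acta1 the capitals mark a CArG box, the binding site of SRF, from -73 to -64 of the RefSeq start. They then mark the M-CAT motif from -46 to -41 and TATAAA from -7 to -2. In Xirp2 they mark a MEF2 box from -74 to -65.
Acta1: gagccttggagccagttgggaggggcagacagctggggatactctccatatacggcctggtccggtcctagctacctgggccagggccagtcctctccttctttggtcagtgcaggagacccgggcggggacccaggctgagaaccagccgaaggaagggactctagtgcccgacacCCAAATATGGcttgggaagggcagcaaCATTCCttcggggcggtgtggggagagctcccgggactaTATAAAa
Xirp2: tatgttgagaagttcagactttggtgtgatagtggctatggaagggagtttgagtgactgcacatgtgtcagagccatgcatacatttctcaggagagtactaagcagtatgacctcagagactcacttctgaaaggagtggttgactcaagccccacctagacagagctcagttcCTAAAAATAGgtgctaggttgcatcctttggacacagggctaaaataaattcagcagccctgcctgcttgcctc
Across all promoters of this length, 1.63% held a CArG box and 3.19% a MEF2 box on either strand, and 8.32% held TATAAA on the gene strand. GATAA, on either strand, was present in 3 of the 11 member windows (Ankrd1, Ankrd23 and Des), beside 25.4% of promoters. These matches describe letters in a window and not bound sites.

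The other muscle ankyrin repeat genes did not pass the test. Ankrd23, or DARP, binds titin in the same region of the I-band. It stood at 9152, 4606, 6519 and 7378 normalized counts in controls and 4681, 4577 and 5642 in ICI-myocarditis. Control 2 was at the level of the diseased hearts, so the groups overlapped. The log2 fold change was -0.44 (SE 0.265, adjusted p = 0.304, 95 by limma% interval -1.04 to 0.16), an interval that leaves out a rise as large as the lower bound of Ankrd1 (1.24). Ankrd2, the form known mainly from skeletal muscle, was low, at 6 to 23 reads per library. After normalization these were 6.05, 7.40, 10.05 and 16.3 in controls and 22.5, 13.8 and 17.6 in ICI-myocarditis. Control 4 lay within the range of the diseased hearts, and the log2 fold change was 0.85 (SE 0.471, adjusted p = 0.263 by limma).

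Set against each other within each library, and per kilobase of exon so that levels can be compared, Ankrd1 stood at 2.03, 2.45, 2.96 and 3.67 times the level of Ankrd23 in the controls. In ICI-myocarditis the ratio was 15.5, 16.4 and 12.4. This ratio, which no scaling of a library alters, was chosen after the values had been seen and is given without a test. Ankrd37, another ankyrin repeat gene, had a log2 fold change of -0.43 (adjusted p = 0.433 by limma).

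Csrp3 and the Xin genes varied widely among the diseased hearts. Csrp3, or muscle LIM protein, is a Z-disc adaptor whose loss causes dilated cardiomyopathy in mice. Normalized counts of Csrp3 were 24170, 15923, 30279 and 51595 in controls and 46672, 24547 and 16381 in ICI-myocarditis. The diseased hearts spanned nearly the whole control range, with ICI-myocarditis 1 high and ICI-myocarditis 3 low. The log2 fold change was -0.07 (SE 0.473, adjusted p = 0.943 by limma), with a 95% interval of -1.13 to 0.999. Its relatives Csrp1 and Csrp2 had log2 fold changes of 0.24 and 0.60 (adjusted p = 0.440 and 0.114 by limma).

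Xirp2, an actin-binding Xin repeat protein of the Z-disc and intercalated disc, ran in the opposite order. Its normalized counts were 40905, 17334, 43297 and 53497 in controls. In ICI-myocarditis they were 40465, 55404 and 131038. ICI-myocarditis 3 stood far above every other library, ICI-myocarditis 2 just above the highest control, and ICI-myocarditis 1 within the control range. The log2 fold change was 0.89 (SE 0.510, adjusted p = 0.279 by limma; DESeq2 adjusted p = 0.130) and fell to 0.40 without ICI-myocarditis 3. Xirp1, or Xin, was at 12583, 6535, 9098 and 12573 in controls and at 8221, 10351 and 15840 in ICI-myocarditis, with a log2 fold change of 0.17 (SE 0.331, adjusted p = 0.786 by limma). Its groups overlapped, and ICI-myocarditis 3 was again the highest library.

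In ICI-myocarditis 1, 2 and 3, the ratio of Xirp2 to Csrp3 normalized counts was thus 0.867, 2.26 and 7.9996, against 1.04 to 1.69 in controls. Per kilobase, Xirp2 was 1.29 to 2.32 times the level of Xirp1 in controls and 2.399, 2.61 and 4.03 times in ICI-myocarditis, so this pair of paralogs shifted towards Xirp2 in each diseased heart, though the lowest diseased and highest control values nearly met. Both ratios were chosen after the values had been seen and have no test.

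**Figure D2:**
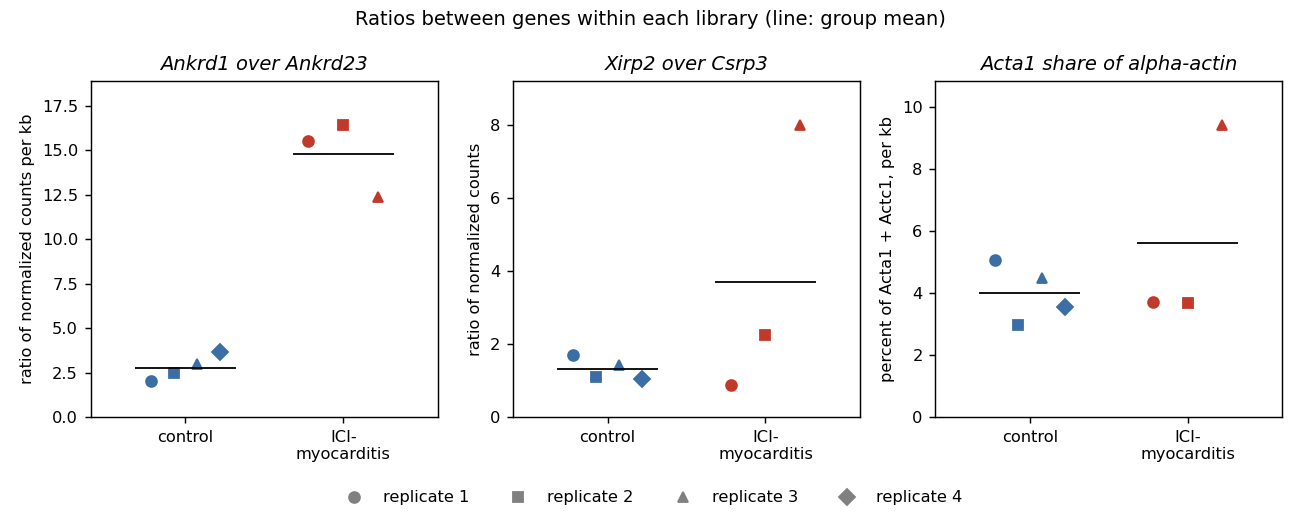
Ratios between genes within each library (vertical axes, linear from 0) for the 4 control and 3 ICI-myocarditis libraries, with marker shape for replicate number and a line at each group mean. Ankrd1 over Ankrd23 separates the groups (2.03 to 3.67 against 12.4 to 16.4), while Xirp2 over Csrp3 and the Acta1 share are set apart mainly by ICI-myocarditis 3, at 7.9996 and 9.44%.

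Acta1, the skeletal alpha-actin that is made in the fetal and the stressed heart, was not higher in ICI-myocarditis. In normalized counts it stood at 13902, 4245, 9738 and 12057 in controls and 6497, 8111 and 11992 in ICI-myocarditis. The diseased values fell inside the control range. The log2 fold change was -0.09 (SE 0.420, adjusted p = 0.917, 95 by limma% interval -1.03 to 0.86). Acta1 made up 5.08%, 2.96%, 4.48% and 3.54% of skeletal plus cardiac alpha-actin mRNA per kilobase in controls and 3.72%, 3.69% and 9.44% in ICI-myocarditis. The group means were 4.01% ± 0.945 (SD, n = 4) and 5.62% ± 3.31 (SD, n = 3), with p = 0.571 in an exact two-sided permutation test whose smallest possible p is 0.0286. Without ICI-myocarditis 3 the difference of 1.604 percentage points became -0.31. Acta1 and Actc1 are near-identical in coding sequence, so reads may have been split between them in a way that the sources used here do not describe.

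Markers of skeletal muscle, the tissue where Acta1 and Ankrd2 are most abundant, were low and did not separate the groups as a sum (1920 to 3817 normalized counts over 16 genes in controls, 2049 to 3670 in ICI-myocarditis). Myod1 was at 0 in all 7 libraries. The sum was lowest of all 7 libraries in control 1 (1920), the library with the most Acta1, and highest in control 4 (3817). Myh4 alone reached 87.7 in control 1, and it was at 0 in all 3 diseased hearts. Of the 9 such markers tested, limma called 2 higher and 0 lower: Tnnt3 (2.18, adjusted p = 0.0449) and Ryr1 (1.89, adjusted p = 0.0461), at no more than 129 normalized counts. Each of these calls was lost in 5 of 7 fits that left out 1 library. The part of skeletal muscle RNA in the values of Acta1 was not tested.

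The remaining actins were read beside Acta1. Cytoplasmic Actb rose, from 21367 to 46664 normalized counts in controls to 57566 to 116910 in ICI-myocarditis (log2 fold change 1.32, SE 0.383, adjusted p = 0.0468 by limma), a call that was lost when any library other than control 2 was left out. Actg1 had a log2 fold change of 0.74 (adjusted p = 0.101 by limma). The muscle actins Actc1, Acta2 and Actg2 had values of -0.48, -0.64 and -0.51 (adjusted p = 0.490, 0.338 and 0.629 by limma). On the cardiomyocyte-marker scale described below they became 0.36, 0.21 and 0.29, all below the median of all genes on that scale (0.81). Actc1 is itself 1 of the 12 markers that set that scale, so its value there is drawn towards theirs. Macrophage markers (7 of 7 called higher), T cell markers (6 of 6) and fibroblast markers (4 of 8) moved in the same direction as Actb, and their part in it was not tested.

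Flnc, Des and Cryab, the scaffold, filament and chaperone of the Z-disc, did not pass the test. Flnc encodes filamin C, which crosslinks actin at the Z-disc and is unfolded by strain. Flnc stood at 30919, 19807, 22788 and 32815 normalized counts in controls and 28831, 29229 and 42813 in ICI-myocarditis, a log2 fold change of 0.35 (SE 0.306, adjusted p = 0.499 by limma). Its non-muscle relative Flna, filamin A, had a value of 0.56 (adjusted p = 0.327 by limma). Desmin, encoded by Des, is the intermediate filament that ties Z-discs to each other. Des stood at 68197, 38951, 54265 and 80271 in controls and 68930, 70572 and 86733 in ICI-myocarditis, with a log2 fold change of 0.36 (SE 0.340, adjusted p = 0.524, 95 by limma% interval -0.40 to 1.13). For both genes the diseased hearts lay in the upper part of the control range or above it, and ICI-myocarditis 3 was the highest of the 7 libraries.

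Desmin is also made by smooth muscle and pericytes, whose 10 markers went the other way: 0 were called higher and 5 lower by limma, and their summed level was 59370 to 85373 normalized counts in controls against 28195 to 40299 in ICI-myocarditis. Their part in the values of Des was not tested. Cryab, or alpha-B-crystallin, is the small heat shock protein that protects desmin and filamin C. Its counts were 29914, 17587, 24135 and 37354 in controls and 24338, 26484 and 22496 in ICI-myocarditis. The diseased values were close together inside the control range (log2 fold change -0.11, SE 0.312, adjusted p = 0.860 by limma). The lens paralog Cryaa was at 0 in all 7 libraries.

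Per kilobase of exon, the order of the members changed at the top. In controls the mean levels were 18423 normalized counts per kilobase for Cryab, 16095 for Des, 11416 for Csrp3, 7061 for Ankrd1 and 6501 for Acta1. The ranges of neighbours in this order overlapped down to Xirp1, the ninth, at 1746, and Ankrd2 stood far below at 8.74. In ICI-myocarditis Ankrd1 moved from place 4 to place 1, at 26905 ± 1032 (SD, n = 3). Its range lay above that of Des (mean 20088), which lay above that of Cryab (mean 16524). From Cryab through Csrp3, Xirp2, Acta1 and Flnc the ranges of neighbours overlapped. Together the 10 members took 0.531% to 0.847% of all reads in controls and 1.07%, 1.10% and 1.52% in ICI-myocarditis. Without Ankrd1 these shares were 0.484% to 0.769% and 0.800%, 0.810% and 1.24%. Both are shares of total reads. In normalized counts the sum of the 10 members overlapped between groups, at 137077 to 316503 in controls and 306519 to 407520 in ICI-myocarditis.

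Among the controls, the members were low or high together in the same libraries. Control 2 was the lowest control for 9 of 10 members, where it was the lowest control for 30.9% of genes tested. It was the lowest of all 7 libraries for 8 members, against 12.8% of genes tested. Control 4 was the highest control for 7 members (35.1% of genes tested). In the diseased group ICI-myocarditis 3 was the highest for 6 members and the lowest for 3 (Ankrd1, Csrp3 and Cryab), where it was the highest for 41% and the lowest for 39.1% of genes tested, so these counts are near the background. The 12 cardiomyocyte markers were also lowest among controls in control 2 and highest in control 4, but lowest of all in ICI-myocarditis 3: the divisors that equalize them were 1.41, 0.788, 1.30 and 1.89 in controls and 0.870, 0.894 and 0.473 in ICI-myocarditis.

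Measured against the mean of the 12 cardiomyocyte markers, most members were higher in the diseased hearts than in any control. On the log2 scale Ankrd1 lay 3.32 to 3.49 below the marker mean in controls, a range with an SD of 0.0732 where it had been 0.519. In ICI-myocarditis it stood at -0.83, -0.82 and -0.01, with an SD of 0.470, so by this measure the diseased hearts were the more spread. The tight control values show that Ankrd1 and the markers varied together among the controls. By this measure 8 of 10 members had non-overlapping groups with ICI-myocarditis higher, all but Ankrd23 and Acta1, and 0 with it lower, beside 29.5% and 1.13% of genes tested. Some groups nearly met: the highest control and lowest diseased values were -2.537 and -2.533 for Csrp3 and -4.15 and -4.07 for Xirp1. The control SD of each member fell by this measure, as for Csrp3 from 0.707 to 0.288, which makes groups easier to separate. The share over all genes tested may therefore not be a like background. The measure also raised the median gene to 0.81, and Csrp3 (0.78) and Cryab (0.74) lay below that.

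A fit of all genes on this scale moved the median log2 fold change of all genes from -0.02 to 0.81, so a member's value is to be read against 0.81. Of the genes called, 98.7% were then higher (2116 higher, 27 lower), where the deposited scale gave 74.6%. The members' median was 1.10, with 6 of 10 above the median of all genes, and limma called 4 higher and 0 lower, beside 13.9% of all genes higher and 0.177% lower. Ankrd1 had a log2 fold change of 2.84 (SE 0.251, adjusted p = 0.00346), Xirp2 of 1.74 (SE 0.500, adjusted p = 0.0426), Des of 1.21 (SE 0.296, adjusted p = 0.0235) and Flnc of 1.19 (SE 0.357, adjusted p = 0.0491), all from limma. Ankrd23, Csrp3, Acta1 and Cryab changed sign to 0.40, 0.78, 0.75 and 0.74, none above 0.81 and none called.

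These additional calls depended on single libraries. With each library left out in turn, a check chosen after seeing the data, the limma call of Ankrd1 held in 7 of 7 fits (log2 fold change 2.57 to 2.98). Des held in 4, Xirp2 in 2 and Flnc in 2. Called members numbered 1 without control 1, control 3 or ICI-myocarditis 3, 2 without control 4 or ICI-myocarditis 2, 4 without ICI-myocarditis 1, and 7 without control 2. Over all genes, calls ranged from 2 without ICI-myocarditis 3 to 7300 without control 2. Total-read scaling moved the median of all genes to 0.13 and left 1 member called.

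**Figure D3:**
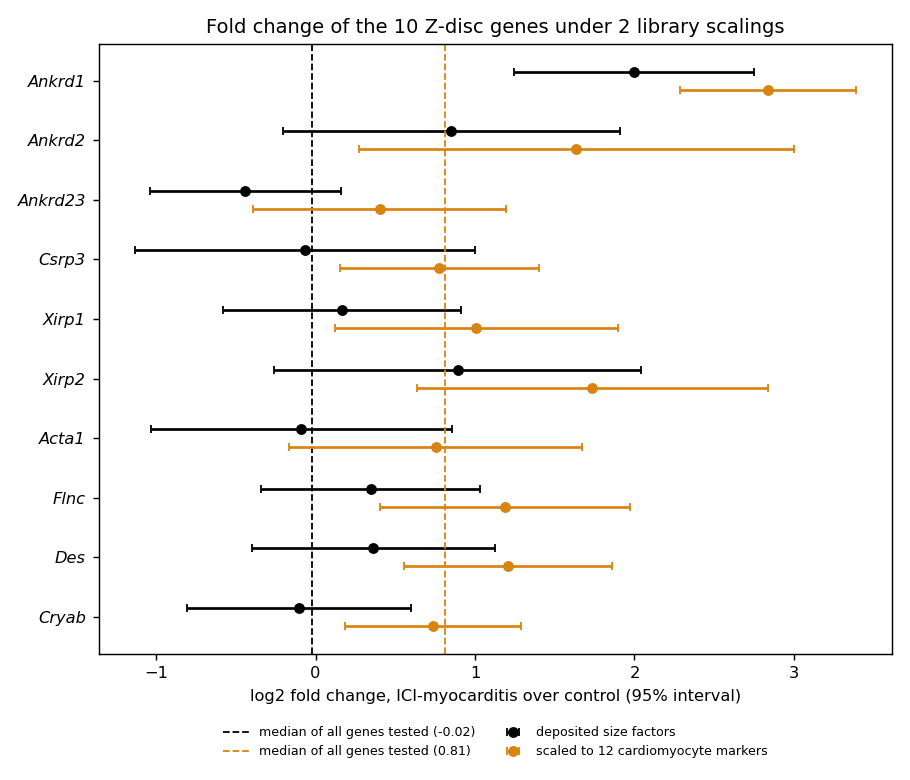
Log2 fold change of each member, ICI-myocarditis over control, with its 95% limma interval (horizontal axis), on the deposited size factors (black) and after scaling libraries to 12 cardiomyocyte markers (orange); dashed lines mark the median of all genes tested on each scale, -0.02 and 0.81. The interval of Ankrd1 lies above the median on both scales, and those of the other 9 members include it.

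**Figure D4:**
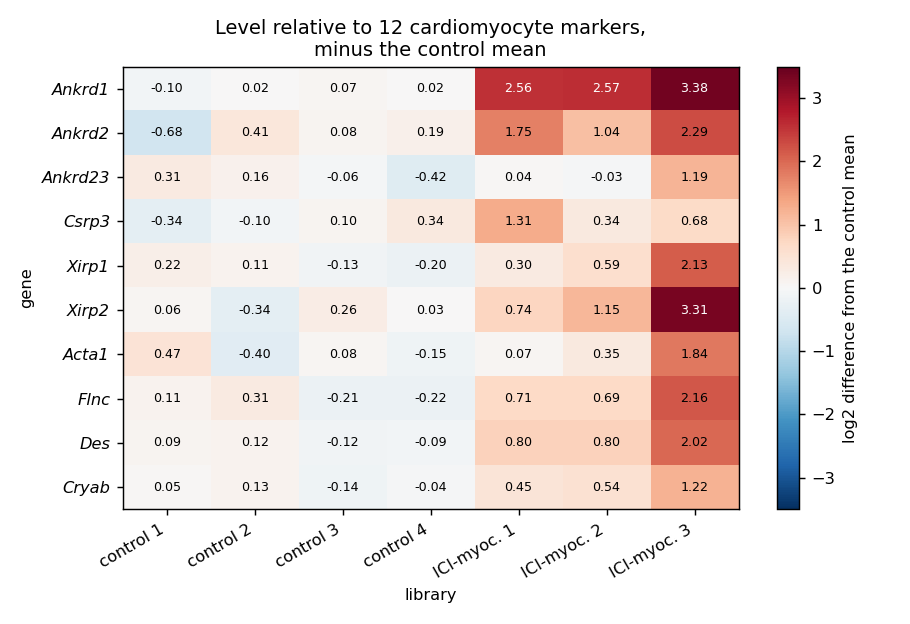
Level of each member (rows) in each library (columns) relative to the mean of 12 cardiomyocyte markers, as a log2 difference from the control mean, by colour and printed value. Ankrd1 is raised in all 3 ICI-myocarditis libraries, whereas ICI-myocarditis 3 holds the highest value of 9 members, all but Csrp3. The marker divisor was lowest in ICI-myocarditis 3 (0.473, against 0.870 and 0.894 in the other diseased hearts), which raises every gene there, member or not. The share of all genes tested that were highest in that library on this scale was not counted.

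The genes around the members were read from 5 lists covering the Z-disc and its surroundings, 86 genes of which 85 were tested. limma called 3 higher and 6 lower, or 3.53% and 7.06% of those tested, beside 11.7% and 4.0% of all genes (10.6% beside 15.7% in either direction), and their median log2 fold change was -0.30. Values of these genes on the cardiomyocyte-marker scale are given relative to the median of all genes on that scale (0.81), while limma's test there is against no change. Called genes among them ranged from 4 without ICI-myocarditis 3 to 17 without control 2, and numbered 23 with DESeq2.

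Of 22 further structural genes of the Z-disc, 0 were called higher and 2 lower (median -0.48). Myot, which encodes the actin-bundling protein myotilin, fell from 380, 241, 472 and 678 normalized counts in controls to 120, 76.8 and 55.8 in ICI-myocarditis. The groups were far apart, and the log2 fold change was -2.35 (SE 0.386, adjusted p = 0.00570 by limma). Lmcd1, a LIM domain gene, fell from 1376 to 1809 normalized counts in controls to 742 to 799 in ICI-myocarditis (-0.98, SE 0.174, adjusted p = 0.00716 by limma). Both calls held with any library left out, and on the cardiomyocyte-marker scale Myot lay at -2.33 and Lmcd1 at -0.95 relative to the median. There Myot passed the test (adjusted p = 0.0300 by limma) and Lmcd1 did not (adjusted p = 0.779). Synpo2l, which encodes an actin-binding Z-disc protein, had the next lowest p (0.94, SE 0.333, adjusted p = 0.0884 by limma), with all 3 diseased hearts above the controls (6512 to 11693 against 2684 to 6087). On the cardiomyocyte-marker scale Synpo2l lay at 0.98 relative to the median and passed the test (adjusted p = 0.0177 by limma). It passed in 3 of 18 alternatives, and in 0 of the 7 fits that left out 1 library.

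Of 20 genes of the costamere, the Z-disc's link to the membrane, 0 were called higher and 1 lower (median -0.47). Sgca, alpha-sarcoglycan, had a log2 fold change of -0.98 (SE 0.249, adjusted p = 0.0287 by limma), a call lost without control 1, control 3 or any of the ICI-myocarditis libraries. Itgb1bp2, or melusin, was at -0.90 and Lims2, or PINCH2, at -0.998 (adjusted p = 0.0524 and 0.0532 by limma). On the cardiomyocyte-marker scale they lay at -0.95, -0.87 and -0.97 relative to the median, and none passed the test.

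Of 16 genes of the SRF and YAP response, through which cells answer tension, 15 were tested, with 1 higher and 1 lower (median -0.14). Ctgf, a secreted matrix protein and a classical YAP target, stood at 2979, 2111, 2326 and 2913 normalized counts in controls and at 9361, 6509 and 21370 in ICI-myocarditis. Its lowest diseased value exceeded the highest control, with a log2 fold change of 2.10 (SE 0.375, adjusted p = 0.00757 by limma) that kept its call with any library left out and on the cardiomyocyte-marker scale (2.13 relative to the median). Fibroblasts also make Ctgf. The summed level of 8 fibroblast markers was 54634 to 86818 in controls and 145561 to 208232 in ICI-myocarditis, and their part in the value of Ctgf was not tested. Wwtr1, or TAZ, a partner of TEAD factors, was at -0.69 (SE 0.190, adjusted p = 0.0384 by limma), lost when any library but control 2 was left out. On the cardiomyocyte-marker scale it lay at -0.66 relative to the median and did not pass the test. Mkl1, a cofactor of SRF, was at 1.01 (adjusted p = 0.0580 by limma).

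Of 18 chaperones and turnover genes of the Z-disc, 0 were called higher and 1 lower (median -0.41). Unc45b, the myosin chaperone, was at -1.08 (SE 0.282, adjusted p = 0.0315 by limma), lost without any of controls 1, 3 and 4 or ICI-myocarditis 1 and 3. On the cardiomyocyte-marker scale it lay at -1.05 relative to the median and did not pass the test. Synpo2 and Trim55 were at -0.80 and -0.41 (adjusted p = 0.1004 and 0.158 by limma), and lay at -0.76 and -0.38 relative to the median on that scale.

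Of 10 intermediate filament and linker genes, 2 were called higher and 1 lower (median -0.10). Vim, the vimentin of fibroblasts and leukocytes, rose from 8573 to 14428 normalized counts in controls to 24445 to 36663 in ICI-myocarditis (1.36, SE 0.282, adjusted p = 0.0121 by limma), lost without ICI-myocarditis 3. Krt18, an epithelial keratin, rose from 12.3 to 43.5 to 52.2 to 137 (1.89, SE 0.539, adjusted p = 0.0435 by limma), a call that held only without control 3 among the fits with 1 library left out. Synm, or synemin, which forms filaments with desmin, fell from 609 to 1030 normalized counts in controls to 313 to 530 in ICI-myocarditis (-0.9998, SE 0.253, adjusted p = 0.0282 by limma), lost without control 1, control 3, ICI-myocarditis 1 or ICI-myocarditis 2. On the cardiomyocyte-marker scale it lay at -0.97 relative to the median and did not pass the test.

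**Figure D5:**
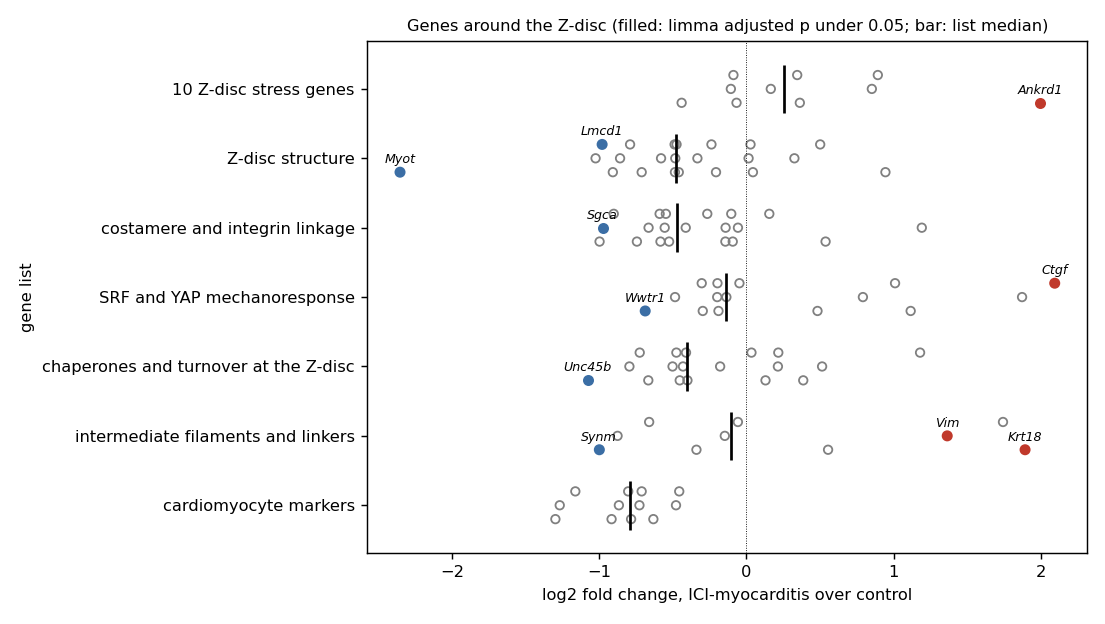
Log2 fold change, ICI-myocarditis over control (horizontal axis), of every tested gene of the 10 members, the 5 surrounding lists and the cardiomyocyte markers (rows); filled points passed a limma adjusted p of 0.05, red higher and blue lower, and bars mark each list's median. Ankrd1 at 2.00 stands alone among the members, and the cardiomyocyte markers are all below 0 with none called.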

How the data were processed

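Total RNA of 7 mouse hearts was sequenced with a stranded kit, paired-end, with 150-base reads, per the labels. The submitters' processing notes name STAR 2.7.3 and GRCm38 (mm10), while the counting program, the annotation used and the use of strand are not given in the sources used here. The per-library values that the authors deposited are a signal normalized by dividing the reads of each gene by the library's size factor. The values themselves show this, all being whole multiples (tolerance 0.1) of 1 step per column, a weaker sign in control 1, whose step is 1.01. Per the file headers it also holds a log2 fold change, a score that is the test statistic, and a p-value with its adjusted value, from the comparison the authors ran. Rows with date-like (27) or repeated names (4) held 0.143% of reads.

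The members and all gene lists were chosen with earlier results of these data known. Genes reaching 10 normalized counts in 3 or more libraries entered limma 3.58.1 (R 4.3.3; trend and robust variance) on log2(normalized count + 1), a scale that understates changes of low genes. P-values were adjusted over all 15258 genes by the Benjamini-Hochberg method, two-sided, with a threshold of 0.05. Alternatives were edgeR 4.0.16 (quasi-likelihood) and DESeq2 1.42.0 on recovered reads, limma without trend, other pseudocounts and filters, TMM, total-read and cardiomyocyte-marker scaling, a replicate block, and each library left out. On 1 set of simulated counts, 200 genes among 15081 were changed, up or down alike. There limma recovered 77.6% of log2 changes of 2 and 13.1% of log2 changes of 1, with 4.72% of calls wrong. DESeq2 had 23.5% of calls wrong. In the data limma called 2397 of 15258 genes, 74.6% of them higher, so these simulated rates may not carry over. At 20931730 or more reads per library the spread between animals limits precision except for Ankrd2, and counting without molecular identifiers overstates the molecules sampled.

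Beside all 10 members, named genes are the 3 with the lowest limma p in each surrounding list and the tested relatives of members, of which 1 is not reported here. Marker genes named singly were chosen after their values were seen. Lengths and positions are from GENCODE M21 (exon union), and promoters from RefSeq. Lists of endothelial markers (4 of 7 called lower, 0 higher) and atrial markers were read as checks. Same-numbered libraries did not deviate together from their group means, with correlations of -0.271, -0.206 and -0.0784 over all genes tested. This check cannot show that the libraries were unpaired. A planned comparison of protein sequences was not analysed here.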

Additional observations from a re-analysis of the deposited data

How the results depend on the processing

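The limma call of Ankrd1 held in 18 of 18 alternatives (log2 fold change 1.77 to 2.84, adjusted p 8.14e-09 to 0.0264, smallest with DESeq2), and 0 members were called lower in any. With each library left out, genes called ranged from 986 to 3340 (3441 with DESeq2, 2160 of them higher and 1281 lower). Under cardiomyocyte-marker scaling 4 members were called higher in tests against no change, Xirp2 (1.74), Flnc (1.19) and Des (1.21) joining Ankrd1. With 1 library also left out, 1 to 7 were called. That scaling moved the median of all genes to 0.81 and so turned the sign, while leaving the value below that median, of Ankrd23 (0.40), Csrp3 (0.78), Acta1 (0.75), Cryab (0.74), Wwtr1 (0.15), Synpo2 (0.047), Trim55 (0.43), Actc1 (0.36), Acta2 (0.21), Actg2 (0.29) and Ankrd37 (0.41). Of these, Actc1 is 1 of the markers that set the scale. Total-read scaling, with a median of 0.13, likewise turned Csrp3 (0.093), Acta1 (0.072) and Cryab (0.054), all below that median. With 1 library left out, values ranged over 0 for Csrp3 (-0.47 to 0.28), Xirp1 (-0.094 to 0.38), Acta1 (-0.46 to 0.11), Cryab (-0.30 to 0.064) and the Acta1 share (-0.31 to 2.57 percentage points).

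With the replicate block, Ankrd1 was at 2.19 (adjusted p = 0.0139 by limma), and Csrp3 (0.23), Acta1 (0.046) and Cryab (0.064) changed sign. It ended the limma calls of Lmcd1 (adjusted p = 0.0597), Sgca (0.121), Wwtr1 (0.216), Unc45b (0.125), Vim (0.0960), Actb (0.224), Tnnt3 (0.102) and Ryr1 (0.0646). The block drops control 4, which has no partner, from the fold changes. None of the ICI-myocarditis libraries correlated best with its own number, so the block says nothing of weaker effects. Calls in single surrounding lists stayed within 1.5 times in 60 of 90 values and moved in 30; over the 5 lists together they numbered 23 with DESeq2 and 4 to 17 with 1 library left out. With 6 to 23 reads per library, the interval of Ankrd2 was wide (-0.21 to 1.91).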
